A study of Mus musculus with 18 samples.

Results

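The bone morphogenetic protein (BMP) pathway was followed through 10 genes in the ovaries of mice that lack Pik3cd: the secreted antagonist Grem1, the ligand Bmp2, the receptors Bmpr1a, Bmpr1b and Bmpr2, the inhibitory SMADs Smad6 and Smad7, and the target genes Id1, Id2 and Id3. The genes were chosen by name, with earlier results of these data known. For each, the probe set with the highest mean signal over all arrays was used. All 10 were among the 12714 genes tested, of 18194 with a probe set of their own, and they had 22 probe sets in all. The other probe sets of a gene served as a check. Grem1, Bmp2, Smad6, Id1 and Id3 had 1 probe set each, so they had no such check.

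Total RNA of whole ovaries from female mice of a mixed C57B6J/S129 background was hybridised to 18 arrays in 6 groups of 3 biological replicates. The groups were Pik3cd-/- and Pik3cd+/- mice given PMSG (a single intraperitoneal injection of 10 IU, ovaries taken 44 hours later), Pik3cd-/- and Pik3cd+/- mice given E2 (3 intraperitoneal injections of 0.03 ml, 24 hours apart, ovaries taken 72 hours after the first), and untreated Pik3cd-/- and Pik3cd+/- mice. By the labels all were 21 days old at the start. Injected mice were therefore older at collection, by 44 hours for PMSG and 72 hours for E2. PMSG is a gonadotropin with FSH-like activity that drives follicle growth, E2 is oestradiol, and Pik3cd codes for p110 delta, one of the catalytic subunits of phosphoinositide 3-kinase. The study asked which genes respond to PMSG or E2 in Pik3cd+/- ovaries and do not respond the same way without Pik3cd. Every mouse carried at least 1 disrupted Pik3cd allele, and no wild-type ovary was among the groups. The injected mice had no vehicle-injected counterpart, so a treatment difference includes injection and the hours that passed. The E2 concentration, and whether each array held 1 animal or a pool, are not given in the sources used here.

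BMP ligands are secreted dimers that bind a type II receptor (BMPR2 and the activin type II receptors) together with a type I receptor (BMPR1A, BMPR1B, ACVR1), which then phosphorylates SMAD1, SMAD5 and SMAD9. These enter the nucleus with SMAD4 and switch on the ID genes, which encode inhibitors of basic helix-loop-helix factors, and also SMAD6 and SMAD7, which feed back to block receptor and SMAD. Outside the cell, antagonists such as gremlin and noggin bind the ligands. In the ovary, BMPs from the oocyte, granulosa and theca cells act on granulosa cells, where they restrain luteinization, and female mice without Bmpr1b are infertile.

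Each array had a median signal of 48.4 to 50.9 intensity units. Arrays of the Pik3cd-/- E2 group resembled each other least (mean correlation with the rest of the group 0.969 to 0.978, against 0.979 to 0.993 for all other arrays). Of the 6 probe sets for Pik3cd, one gave 19.1 to 28.8 in all Pik3cd-/- ovaries and 61.4 to 73.1 in all Pik3cd+/- ovaries, and a second was lower in Pik3cd-/- in each state without overlap. The brightest overlapped between genotypes, at 2949 to 3945 in Pik3cd-/- and 2329 to 4833 in Pik3cd+/-. Markers of oocytes and granulosa cells, the cells that define an ovary, gave summed signals of 6464 or more and 21978 or more on every array, and no probe set was at 0 on any array. Oviduct markers stood out on 2 arrays, with summed signals of 4295 in Pik3cd+/- PMSG replicate 1 and 1801 in untreated Pik3cd+/- replicate 2, against at most 491.5 on the other 16. Changes below are log2 differences of signal plus 8.58 with the SE of the model, and padj is limma's p adjusted over all 12714 genes. Precision is limited by the 3 arrays per group.

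Grem1, which encodes the BMP antagonist gremlin, had the largest treatment response of the 10 genes. In Pik3cd-/- ovaries given PMSG its signal was 759.6, 430.3 and 493.4, and in Pik3cd+/- ovaries given PMSG it was 803.4, 791.8 and 2478. In Pik3cd-/- ovaries given E2 it was 37.0, 129 and 236.9, and in Pik3cd+/- ovaries given E2 it was 119.9, 46.4 and 28.5. Untreated ovaries gave 128.4, 27.6 and 136.4 in Pik3cd-/- and 90.2, 118.7 and 187.1 in Pik3cd+/-. All 6 PMSG arrays lay above all 12 others, while the E2 and untreated arrays were mixed with each other. Averages were 561.1 ± 175 in Pik3cd-/- PMSG ovaries against 97.5 ± 60.6 in untreated Pik3cd-/- ovaries, and 1358 ± 970 in Pik3cd+/- PMSG ovaries against 132 ± 49.8 in untreated Pik3cd+/- ovaries (SD, n = 3 each).

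Grem1 rose after PMSG in both genotypes, by 2.63 ± 0.65 in Pik3cd-/- (padj = 0.0457) and by 3.12 ± 0.65 in Pik3cd+/- (padj = 0.00597). The interaction of PMSG and genotype was -0.49 ± 0.92 (95% interval -2.45 to 1.46, padj = 0.893), an interval wide enough to hold a large difference in either direction, and it was 0.05 (padj = 0.984) without Pik3cd+/- PMSG replicate 3. The difference between PMSG and E2 ovaries was 2.26 ± 0.65 in Pik3cd-/- (padj = 0.0668), and in Pik3cd+/- PMSG ovaries exceeded E2 ovaries by 4.20 ± 0.65 (padj = 0.00119). The Pik3cd-/- difference passed without Pik3cd-/- E2 replicate 3 (2.81, padj = 0.0185), and at 2.26 without untreated Pik3cd-/- replicate 2 (padj = 0.0369) or Pik3cd+/- PMSG replicate 3 (padj = 0.0465). After E2 the change against untreated ovaries was 0.37 ± 0.65 in Pik3cd-/- and -1.08 ± 0.65 in Pik3cd+/-, and neither passed the test (padj = 0.799 and 0.427). The PMSG and E2 comparisons share their untreated arrays.

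In whole ovaries, fewer cells of a type and less RNA per cell cannot be told apart. Of 10 granulosa markers, 1 rose and 0 fell after PMSG in Pik3cd-/- ovaries (1.71% and 0.669% of all genes). In Pik3cd+/- ovaries 1 rose and 1 fell (5.80% and 11.9% of all genes). Pik3cd+/- PMSG replicate 3, with the highest Grem1 signal, had a summed granulosa marker signal of 50864, against 31601 and 32043 on the other arrays of its group. Untreated Pik3cd-/- replicate 2, with the lowest Grem1 signal, had the lowest such sum, 21978, against 32803 and 34199 in its group. Without that array the PMSG change in Pik3cd-/- was 1.97 with padj = 0.163, and the call was lost on leaving out any of 11 of the 18 arrays. The call in Pik3cd+/- held in all 18 such fits (padj 0.00236 to 0.0334). Of 7 theca and interstitial markers, 2 rose in Pik3cd-/- (1.71% of all genes) after PMSG, and in Pik3cd+/- 3 rose (5.80%) and 3 fell (11.9%). Their summed signals were 25455 to 29639 in Pik3cd-/- PMSG and 23016 to 30529 in Pik3cd+/- PMSG ovaries. Untreated ovaries gave 13265 to 18363 in Pik3cd-/- and 15560 to 17908 in Pik3cd+/-. The part of these cell types in the Grem1 change was not tested.

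**Figure D1:**
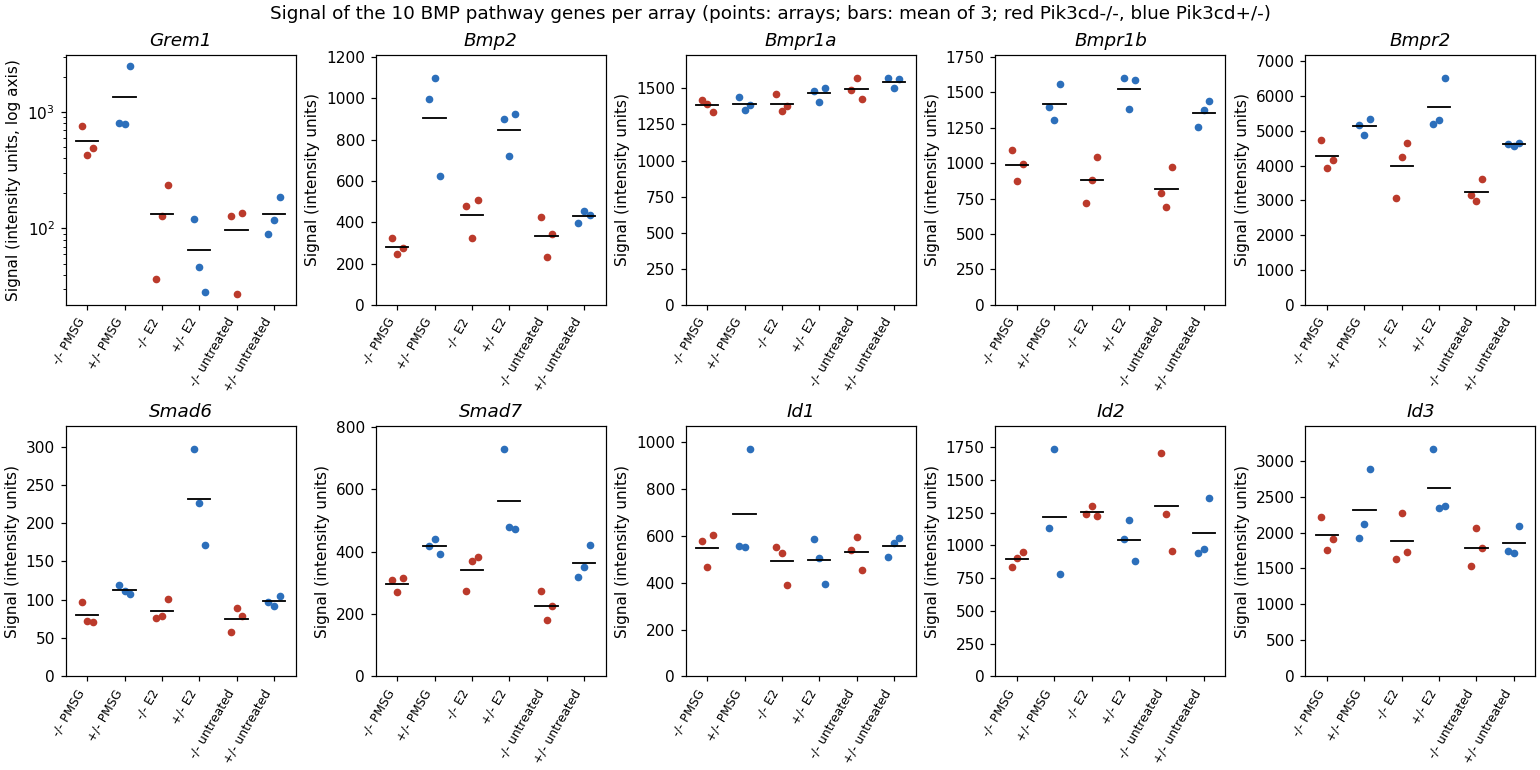
Signal in intensity units (y axis, linear from 0 except for Grem1, which has a log axis) of the 10 genes on each array (points, 3 per group) with group means (bars), in Pik3cd-/- (red) and Pik3cd+/- (blue) ovaries given PMSG, given E2 or untreated. The 6 PMSG arrays sit above the other 12 for Grem1, and for Bmpr1b all 9 Pik3cd-/- arrays sit below all 9 Pik3cd+/- arrays.

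The Grem1 promoter window, which begins 250 bases before the annotated start and ends 50 after it, is shown because Grem1 was the gene with the largest PMSG change. It lies at chr2:113758599-113758898 on the minus strand (RefSeq, GRCm38.p6), and capitals mark the letters GGCGCC, a GC-rich element bound by SMAD1 and SMAD5.
Grem1: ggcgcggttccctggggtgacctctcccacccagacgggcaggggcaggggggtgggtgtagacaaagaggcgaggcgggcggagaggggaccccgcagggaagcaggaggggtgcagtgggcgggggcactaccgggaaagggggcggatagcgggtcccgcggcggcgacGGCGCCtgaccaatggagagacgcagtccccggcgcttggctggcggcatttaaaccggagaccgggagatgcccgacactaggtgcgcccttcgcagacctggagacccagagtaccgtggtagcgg
The match begins at position -78 from the start. Windows were found for 7 of the 10 genes, 9 windows in all with 3 for Bmpr1b, and were searched on both strands for GGCGCC (a palindrome, in 11.9% of 32851 windows of all genes), the cAMP response element core TGACG (20.8%), the FoxO site GTAAACA (3.65%) and the SMAD palindrome GTCTAGAC (0.213%). Besides the GGCGCC in Grem1, the windows of Bmpr1a, Bmpr2 and Id2 held 1 GGCGCC each, that of Id3 held 1 TGACG, and that of Smad6 held 1 GTCTAGAC. The FoxO motif was in none of the 9. No 2 matches overlapped. A match describes these letters only.

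Bmp2 encodes a secreted BMP ligand. Its signal was 324.2, 244.8 and 273.3 in Pik3cd-/- and 998.4, 1099.8 and 622.3 in Pik3cd+/- ovaries given PMSG. It was 479.9, 323.9 and 507.2 in Pik3cd-/- and 901.8, 719.4 and 924.6 in Pik3cd+/- ovaries given E2. Untreated ovaries gave 427.1, 230.8 and 343.8 in Pik3cd-/- and 398.3, 455.3 and 434.1 in Pik3cd+/-. The 6 treated Pik3cd+/- arrays lay above all 12 others, and the treated Pik3cd-/- arrays overlapped the untreated ones.

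In Pik3cd-/- ovaries the changes of Bmp2 were -0.21 ± 0.23 after PMSG (padj = 0.651) and 0.40 ± 0.23 after E2 (padj = 0.417). In Pik3cd+/- ovaries Bmp2 rose after PMSG by 1.02 ± 0.23 (padj = 0.00845) and after E2 by 0.96 ± 0.23 (padj = 0.0472). Bmp2 was lower in Pik3cd-/- than in Pik3cd+/- ovaries after PMSG, by -1.63 ± 0.23 (padj = 0.00226), and after E2, by -0.96 ± 0.23 (padj = 0.0139), while the untreated difference was -0.39 ± 0.23 (padj = 0.35). The difference between genotypes in the PMSG response was itself -1.23 ± 0.32 (95% interval -1.92 to -0.55, unadjusted p = 0.00161), which did not pass over all genes (padj = 0.348). For E2 it was -0.57 ± 0.32 (padj = 0.7). By limma, 0 of 12714 genes were called in either interaction, while 1193 (PMSG) and 924 (E2) had an unadjusted p under 0.05.

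The PMSG call in Pik3cd+/- and the genotype call after PMSG were kept on leaving out each of the 18 arrays. The E2 call in Pik3cd+/- was lost in 12 of 18 such fits (padj up to 0.15), with changes of 0.90 to 1.08. The genotype call after E2 was lost without Pik3cd-/- E2 replicate 2 (-0.76, padj = 0.0543) or Pik3cd+/- E2 replicate 1 (-0.91, padj = 0.0554). Among 8 macrophage markers, 0 rose after PMSG in Pik3cd-/- (1.71% of all genes) and 4 in Pik3cd+/- (5.80%). Their summed signals were 2081 to 2641 in Pik3cd-/- PMSG, 1694 to 3222 in Pik3cd+/- PMSG, 1468 to 2837 in untreated Pik3cd-/- and 1099 to 1277 in untreated Pik3cd+/- ovaries. Between genotypes after PMSG, 0 of the 8 were called, with a median log2 difference of -0.12. After E2, 0 of the 8 were called in either genotype (0.00787% of all genes rose in Pik3cd-/- and 1.18% in Pik3cd+/-). Their median log2 change after E2 was 0.11 in Pik3cd-/- and 0.71 in Pik3cd+/-, against -0.05 and 0.0035 over all genes. Summed signals were 957 to 3794 in Pik3cd-/- E2 and 1836 to 2001 in Pik3cd+/- E2 ovaries. The Pik3cd+/- E2 sums lay above the untreated Pik3cd+/- sums without overlap. After PMSG in Pik3cd+/-, 8 of 10 oocyte markers fell (11.9% of all genes) and 2 of 7 smooth muscle markers rose. In Pik3cd-/- 0 of either list were called after PMSG. The part of these cell types in the Bmp2 change was not tested.

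The type I receptor Bmpr1b separated the genotypes in every state. Its signal was 1095, 876.2 and 992.2 in Pik3cd-/- and 1394, 1302 and 1555 in Pik3cd+/- ovaries given PMSG. It was 718.3, 879.9 and 1041 in Pik3cd-/- and 1603, 1379.6 and 1585 in Pik3cd+/- ovaries given E2. Untreated ovaries gave 788.7, 692.1 and 971 in Pik3cd-/- and 1257, 1371 and 1436 in Pik3cd+/-. The highest of the 9 Pik3cd-/- arrays lay below the lowest of the 9 Pik3cd+/- arrays. Bmpr1b was lower in Pik3cd-/- by -0.73 ± 0.14 untreated (padj = 0.0248), by -0.52 ± 0.14 after PMSG (padj = 0.0454) and by -0.80 ± 0.14 after E2 (padj = 0.00295), and no treatment difference passed in either genotype. Only the call after E2 held on leaving out each array. The call after PMSG was lost in 13 of 18 such fits, with padj up to 0.224, and the untreated call in 4, when any untreated Pik3cd+/- array or untreated Pik3cd-/- replicate 2 was left out, with padj up to 0.131. The other 2 probe sets for Bmpr1b were dimmer, with group means of 104 to 170, and gave genotype differences of -0.11 to -0.43 that were not called.

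Bmpr2, the type II receptor for BMPs, followed the same order. Its signal was 4731, 3942 and 4151 in Pik3cd-/- and 5175, 4893 and 5351 in Pik3cd+/- ovaries given PMSG. It was 3069.9, 4239.7 and 4647 in Pik3cd-/- and 5196, 5298 and 6527 in Pik3cd+/- ovaries given E2. Untreated ovaries gave 3169.7, 2979 and 3619 in Pik3cd-/- and 4612, 4570.3 and 4655 in Pik3cd+/-. The genotypes did not overlap within any state. Bmpr2 was lower in Pik3cd-/- untreated by -0.51 ± 0.13 (padj = 0.0498) and after E2 by -0.52 ± 0.13 (padj = 0.0148), and the difference after PMSG was -0.27 ± 0.13 (95% interval -0.54 to 0.00, padj = 0.282). The 3 probe sets for Bmpr2 were each called lower after E2 when all probe sets were tested, at -0.52, -0.83 and -0.53. The untreated call was lost in 12 of 18 fits with an array left out (padj up to 0.206). The E2 call was lost without Pik3cd-/- E2 replicate 1, where the difference was -0.35 (padj = 0.0643). PMSG against untreated gave 0.39 ± 0.13 in Pik3cd-/- (padj = 0.114) and 0.15 ± 0.13 in Pik3cd+/- (padj = 0.421), and the Pik3cd-/- change passed without Pik3cd-/- E2 replicate 1 (padj = 0.0379).

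In each Pik3cd-/- group the array with the lowest Bmpr1b signal was also the lowest for Bmpr2 and for the summed granulosa markers. These were PMSG replicate 2, E2 replicate 1 and untreated replicate 2. In Pik3cd+/- this held only in the PMSG group, at replicate 2. In Pik3cd+/- E2 ovaries Bmpr1b was lowest in replicate 2, Bmpr2 in replicate 1 and the granulosa sum in replicate 3. In untreated Pik3cd+/- ovaries Bmpr1b was lowest in replicate 1, and Bmpr2 and the granulosa sum in replicate 2. The granulosa sums were 41481, 38420 and 39554 in Pik3cd-/- and 32043, 31601 and 50864 in Pik3cd+/- ovaries given PMSG. They were 26543, 35321 and 34989 in Pik3cd-/- and 33040, 31812 and 31570 in Pik3cd+/- ovaries given E2, and 32803, 21978 and 34199 in Pik3cd-/- and 32840, 32512 and 35235 in Pik3cd+/- untreated ovaries. The sums overlapped between genotypes in every state. The median log2 genotype difference of the 10 granulosa markers was 0.04 after PMSG, -0.14 after E2 and -0.44 untreated. Over all genes it was 0.01, -0.07 and -0.01. The part of granulosa cells in the receptor differences was not tested.

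Bmpr1a, a second type I receptor for BMPs, stayed between 1339.8 and 1574 on all 18 arrays, and no comparison passed. Its smallest padj was 0.0865, for PMSG against untreated in Pik3cd+/- (-0.15 ± 0.06), and its genotype differences were -0.01, -0.07 and -0.05 after PMSG, after E2 and untreated, with 95% intervals within 0.20 of zero on the log2 scale. Of its 6 probe sets 5 passed the filter on low values, and none was called between genotypes.

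Promoter windows of the receptors that were lower in Pik3cd-/- are shown side by side, from RefSeq on GRCm38.p6. That of Bmpr2 lies at chr1:59764029-59764328 on the plus strand, with GGCGCC in capitals at position -105 from the start. That of Bmpr1b, the first listed of 3 annotated starts, lies at chr3:141982215-141982514 on the minus strand and held none of the motifs searched. This Bmpr1b start lies inside the gene, which spans chr3:141837135-142169585, and not at its upstream end.
Bmpr2: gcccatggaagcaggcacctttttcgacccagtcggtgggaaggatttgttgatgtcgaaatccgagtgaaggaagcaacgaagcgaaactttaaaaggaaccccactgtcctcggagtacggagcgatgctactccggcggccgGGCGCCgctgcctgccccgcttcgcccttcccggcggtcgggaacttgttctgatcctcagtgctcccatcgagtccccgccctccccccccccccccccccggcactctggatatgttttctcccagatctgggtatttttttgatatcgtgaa
Bmpr1b: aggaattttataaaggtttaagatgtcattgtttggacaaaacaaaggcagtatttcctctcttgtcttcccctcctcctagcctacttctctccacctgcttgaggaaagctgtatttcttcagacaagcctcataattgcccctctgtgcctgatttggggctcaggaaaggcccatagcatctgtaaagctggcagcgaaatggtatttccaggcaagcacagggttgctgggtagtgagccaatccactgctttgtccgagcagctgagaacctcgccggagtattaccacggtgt

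Smad6 and Smad7 encode the inhibitory SMADs, of which SMAD6 acts mainly on BMP receptors and SMAD7 also on TGF-beta and activin receptors. Smad6 signal was 96.8, 72.4 and 71.3 in Pik3cd-/- and 119.5, 110.8 and 107.6 in Pik3cd+/- ovaries given PMSG. It was 76.0, 79.1 and 101.3 in Pik3cd-/- and 296.7, 226.6 and 170.9 in Pik3cd+/- ovaries given E2. Untreated ovaries gave 58.0, 88.7 and 78.8 in Pik3cd-/- and 97.5, 91.3 and 104.3 in Pik3cd+/-. The 3 Pik3cd+/- E2 arrays lay above the other 15, and the Pik3cd-/- arrays overlapped across states.

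After E2 the change of Smad6 was 0.18 ± 0.18 in Pik3cd-/- (padj = 0.639), while in Pik3cd+/- Smad6 rose by 1.14 ± 0.18 (padj = 0.0074). PMSG minus E2 was -0.09 ± 0.18 in Pik3cd-/- (padj = 0.845) and -0.95 ± 0.18 in Pik3cd+/- (padj = 0.0038). After E2, Pik3cd-/- ovaries were below Pik3cd+/- ovaries by -1.33 ± 0.18 (padj = 0.00113). The interaction of E2 and genotype was -0.97 ± 0.25 (95% interval -1.50 to -0.43, unadjusted p = 0.00149), which did not pass over all genes (padj = 0.47). None of the 3 Smad6 calls was lost on leaving out any array or under the other settings tried. Outside E2 the genotype differences were -0.46 ± 0.18 after PMSG (padj = 0.173) and -0.36 ± 0.18 untreated (padj = 0.265).

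The Smad6 window is shown because it was the only one of the 9 with the SMAD palindrome GTCTAGAC, here in capitals at position -4 from the start. It lies at chr9:64022010-64022309 on the minus strand (RefSeq, GRCm38.p6).
Smad6: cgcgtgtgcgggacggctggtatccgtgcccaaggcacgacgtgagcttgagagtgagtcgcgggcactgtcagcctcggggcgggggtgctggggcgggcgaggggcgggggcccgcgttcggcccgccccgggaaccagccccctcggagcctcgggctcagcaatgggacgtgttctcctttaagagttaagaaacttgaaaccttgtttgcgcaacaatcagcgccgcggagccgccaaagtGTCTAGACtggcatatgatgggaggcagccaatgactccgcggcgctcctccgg

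Smad7 signal was 308.3, 269.2 and 314.4 in Pik3cd-/- and 419.6, 441.6 and 393.9 in Pik3cd+/- ovaries given PMSG. It was 275.2, 369.3 and 383.6 in Pik3cd-/- and 729.5, 480.8 and 474 in Pik3cd+/- ovaries given E2. Untreated ovaries gave 273.3, 179.8 and 224.5 in Pik3cd-/- and 317.3, 352.2 and 421.5 in Pik3cd+/-. The genotypes did not overlap within any state. Smad7 was lower in Pik3cd-/- after E2 by -0.68 ± 0.18 (padj = 0.0193), and the differences untreated (-0.68 ± 0.18, padj = 0.0545) and after PMSG (-0.48 ± 0.18, padj = 0.147) did not pass. The untreated difference passed without untreated Pik3cd-/- replicate 1 (-0.82), Pik3cd-/- E2 replicate 1 or 3, or Pik3cd+/- E2 replicate 1 (padj 0.0383 to 0.0436). The E2 call was lost without Pik3cd+/- E2 replicate 1 (-0.48, padj = 0.0935) or Pik3cd-/- E2 replicate 1 (-0.54, padj = 0.091). The second Smad7 probe set gave -0.37, -0.54 and -0.30 after E2, untreated and after PMSG, none of them called. E2 against untreated gave 0.59 ± 0.18 in Pik3cd-/- (padj = 0.232) and 0.60 ± 0.18 in Pik3cd+/- (padj = 0.0973), with an interaction of -0.01 (95% interval -0.54 to 0.52).

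The ID genes, the standard transcriptional readout of BMP signalling, did not pass in any of the 11 comparisons. Id1 ranged from 392 to 970.6 over the 18 arrays, and its highest array was Pik3cd+/- PMSG replicate 3, which also had the highest Grem1 signal. Id2 ranged from 778.2 to 1734, with both ends in the Pik3cd+/- PMSG group. Id3 ranged from 1532 to 3161 and was 1626, 2277 and 1723 in Pik3cd-/- ovaries given E2, against 3161, 2347 and 2370 in Pik3cd+/- ovaries given E2, without overlap. That Id3 difference was -0.49 ± 0.17 (95% interval -0.85 to -0.12, padj = 0.0604) and had the smallest padj among the ID genes. It passed without Pik3cd-/- E2 replicate 2 (-0.63, padj = 0.0381) or Pik3cd+/- PMSG replicate 3 (-0.49, padj = 0.0379). Id2 lay the other way in the E2 groups, also without overlap, with means of 1255 in Pik3cd-/- and 1039 in Pik3cd+/-. That Id2 difference was 0.28 ± 0.24 (padj = 0.416). A second Id2 probe set overlapped there, with means of 561 in Pik3cd-/- and 725.3 in Pik3cd+/-. After PMSG the changes in Pik3cd-/- were 0.05 for Id1 (interval -0.38 to 0.48), -0.49 for Id2 (-1.0 to 0.01) and 0.13 for Id3 (-0.23 to 0.49). In Pik3cd+/- the changes were 0.26 for Id1 (-0.17 to 0.69), 0.10 for Id2 (-0.41 to 0.60) and 0.30 for Id3 (-0.06 to 0.66) after PMSG. The Pik3cd-/- PMSG arrays lay below the untreated and the E2 Pik3cd-/- arrays for Id2. After E2 the changes of Id1, Id2 and Id3 were -0.12, -0.01 and 0.06 in Pik3cd-/-. In Pik3cd+/- they were -0.18, -0.06 and 0.49. The Id3 change in Pik3cd+/- (0.13 to 0.86, padj = 0.149) came without overlap of the E2 and untreated arrays.

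**Figure D2:**
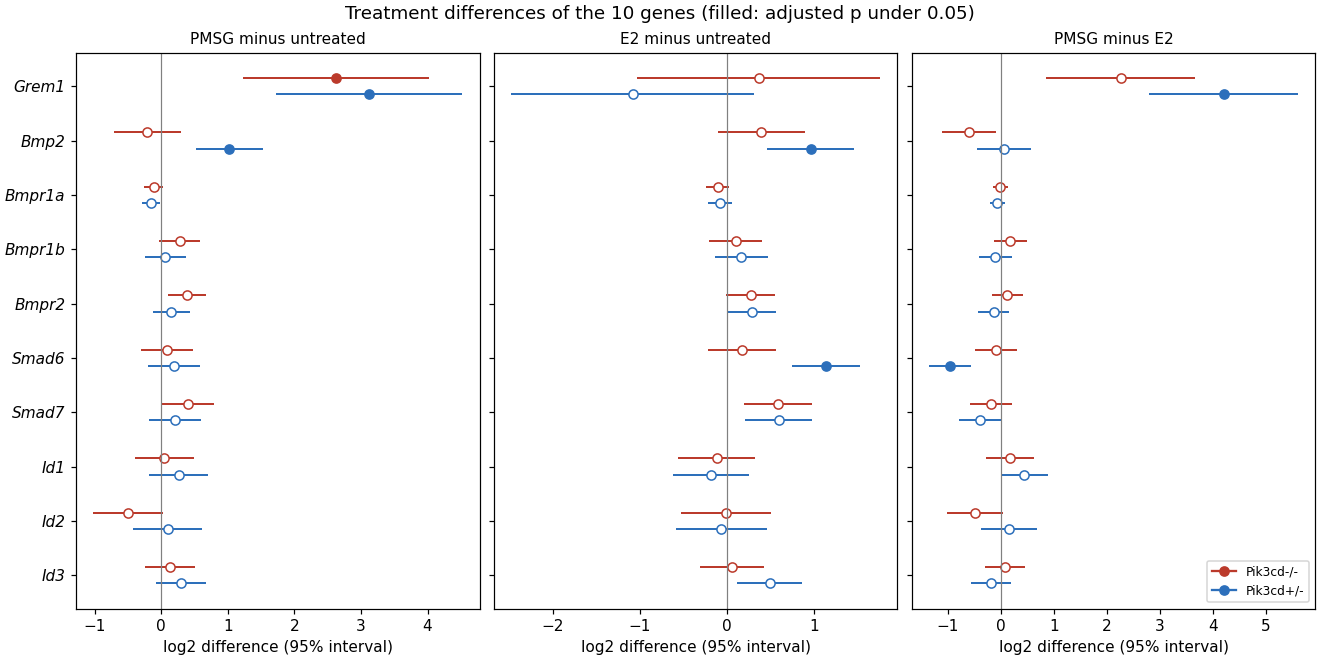
Log2 differences (x axis, with 95% intervals) between treatments for the 10 genes, in Pik3cd-/- (red, upper of each pair) and Pik3cd+/- (blue, lower) ovaries, with filled points for adjusted p under 0.05. Grem1 is filled in both genotypes for PMSG minus untreated. Bmp2 for PMSG and for E2 against untreated, Smad6 for E2 against untreated, and Grem1 and Smad6 for PMSG minus E2 are filled in Pik3cd+/- and open in Pik3cd-/-.

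Over the treatment comparisons few of the 10 genes were called. After PMSG in Pik3cd-/-, 1 of 10 rose (1.71% of all tested genes rose) and 0 fell (0.669%). After PMSG in Pik3cd+/-, 2 of 10 rose (5.80% of all genes) and 0 fell (11.9%). After E2, 0 of 10 were called in Pik3cd-/- (0.00787% of all genes rose and 0.0472% fell), and in Pik3cd+/- 2 rose (1.18%) and 0 fell (0.440%). For PMSG minus E2, 0 of 10 were called in Pik3cd-/- (3.33% of all genes higher, 0.779% lower), and in Pik3cd+/- 1 was higher (3.54%) and 1 lower (7.65%). The median log2 change of the 10 after PMSG was 0.11 in Pik3cd-/- and 0.20 in Pik3cd+/-, against -0.01 and -0.05 over all genes.

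Between genotypes, each call was lower in Pik3cd-/-. Untreated, 2 of 10 were lower (1.34% of all genes) and 0 higher (0.834%). After PMSG, 2 were lower (1.05%) and 0 higher (3.08%). After E2, 5 were lower (12.0%) and 0 higher (4.85%). When only the E2 groups entered the fit, 1 of the 10, Smad6, was called after E2, and 97 of all genes were called in either direction, against 2141. The median difference of the 10 was -0.38 untreated, -0.41 after PMSG and -0.50 after E2, against -0.01, 0.01 and -0.07 over all genes, and 9, 10 and 8 of the 10 were below zero. In either interaction 0 of 10 were called (0% of all genes). These are the values of single genes side by side, and the 3 states use different arrays. The 10 genes were chosen with earlier results of these data known, so their counts and medians against all genes describe this list only. The same holds for the treatment comparisons.

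**Figure D3:**
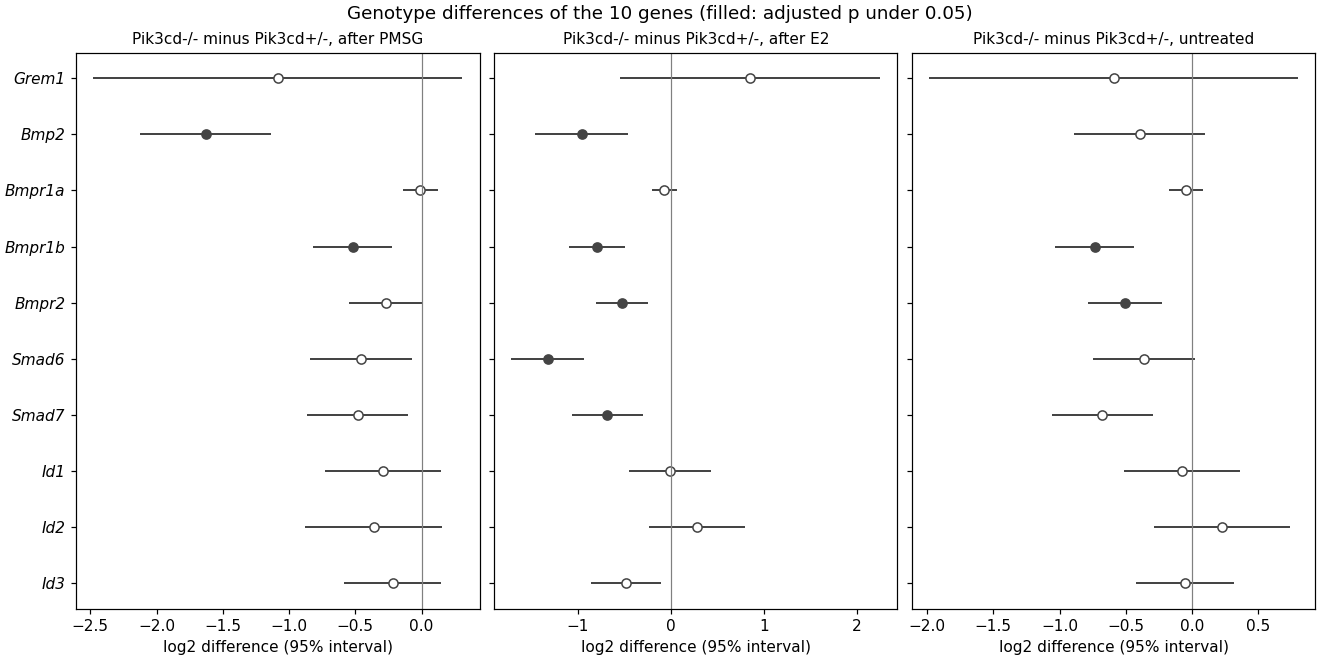
Log2 difference of Pik3cd-/- minus Pik3cd+/- (x axis, with 95% interval) for the 10 genes after PMSG, after E2 and in untreated ovaries, with filled points for adjusted p under 0.05. All filled points lie below zero, and Bmpr1b is filled in all 3 panels.

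Oocyte markers moved the other way in the same comparisons. Of 10, those higher in Pik3cd-/- numbered 10 after PMSG, 10 after E2 and 5 untreated, with 0 lower in each state. Of all genes, 3.08%, 4.85% and 0.834% were higher in Pik3cd-/- in these states. Their summed signal was 14449 to 16155 in Pik3cd-/- PMSG and 6464 to 7219 in Pik3cd+/- PMSG ovaries, 11795 to 21482 in Pik3cd-/- E2 and 7978 to 9068 in Pik3cd+/- E2 ovaries, and 18551 to 22621 in untreated Pik3cd-/- and 12128 to 13255 in untreated Pik3cd+/- ovaries. After PMSG in Pik3cd+/- 8 of the 10 fell. Of 8 markers of endothelial cells, in which the inhibitory SMADs and ID genes are also active, 0 were called in every comparison, with summed signals of 1223 to 2235 in Pik3cd-/- and 1499 to 1838 in Pik3cd+/- ovaries. Of 7 stromal fibroblast markers, 1 was higher in Pik3cd-/- after E2 and 0 were called in the other states. Of 10 granulosa markers, 1 was higher and 1 lower in Pik3cd-/- untreated and after E2. Of 7 theca and interstitial markers, 1, the steroidogenic enzyme gene Hsd3b1, was higher in Pik3cd-/- after E2 and 0 were called in the other states, with summed signals of 12103 to 13085 in Pik3cd-/- E2 and 9442.5 to 13598 in Pik3cd+/- E2 ovaries. Among smooth muscle (7), macrophage (8), surface epithelium (7), oviduct (2 tested) and blood (1 tested) markers, 0 were called between genotypes. The part of cell composition in the genotype differences was not tested.

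**Figure D4:**
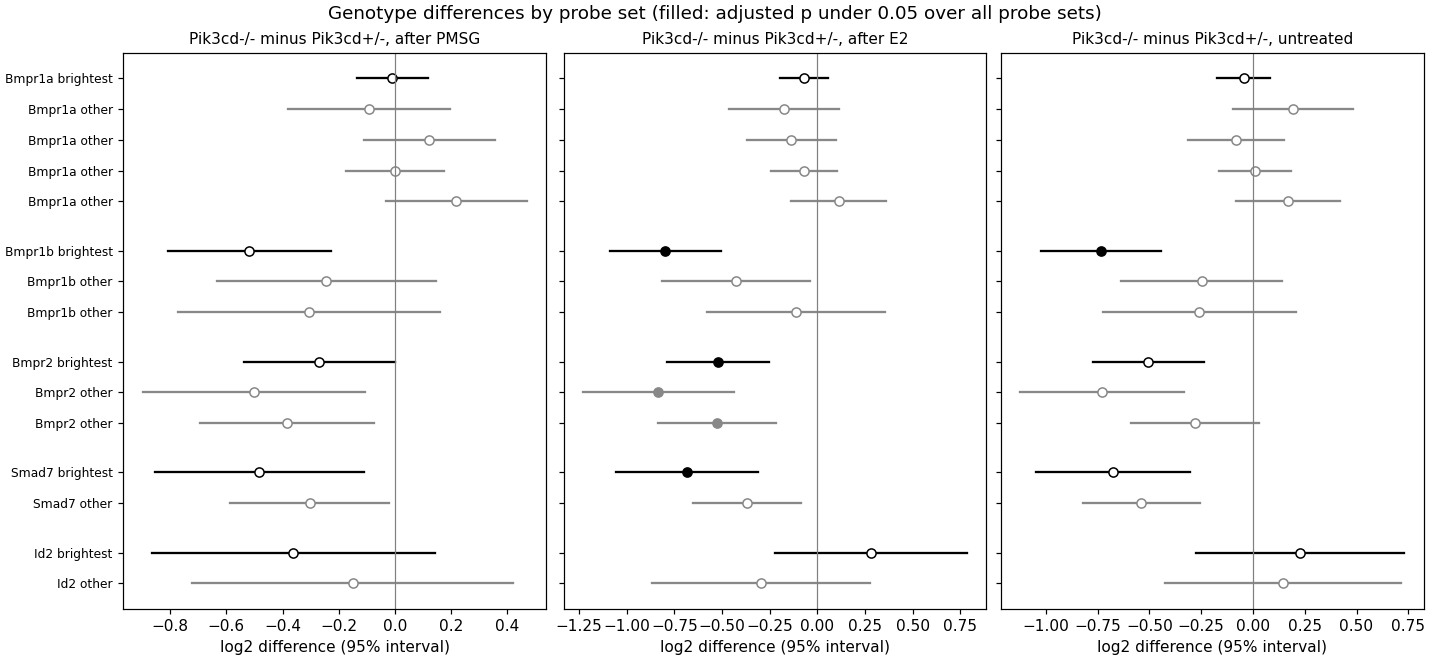
Log2 difference of Pik3cd-/- minus Pik3cd+/- (x axis, with 95% interval) for each tested probe set of the 5 genes with more than 1, in 3 states, with the brightest probe set in black, the others in grey, and filled points for adjusted p under 0.05 over all probe sets. All 3 probe sets of Bmpr2 are filled after E2, and for Bmpr1b the 2 dimmer ones lie closer to zero than the brightest.

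The rest of the pathway was read from 5 lists (ligands, receptors, SMADs and their ubiquitin ligases, secreted antagonists, and targets), which hold 51 other genes, 35 of them tested. Among ligands, Gdf9, made by the oocyte, fell after PMSG in Pik3cd+/- by -0.92 ± 0.17 (padj = 0.00299) and was higher in Pik3cd-/- after PMSG by 1.05 ± 0.17 (padj = 0.00418) and after E2 by 0.83 ± 0.17 (padj = 0.00659). Bmp15, also made by the oocyte, was higher in Pik3cd-/- after E2 by 0.99 ± 0.26 (padj = 0.0209), as was Bmp7 by 0.29 ± 0.10 (padj = 0.0494). Gdf9 averaged 5839 ± 359 in Pik3cd-/- and 2816 ± 268 in Pik3cd+/- ovaries given PMSG (SD, n = 3 each), in the direction of the oocyte markers. Bmp5 and Bmp6 fell after PMSG in Pik3cd+/-, by -0.65 ± 0.13 and -0.43 ± 0.13 (padj = 0.00577 and 0.0364), opposite in sign to Bmp2. Compared with E2, PMSG ovaries had less Bmp5 in both genotypes, by -0.50 ± 0.13 in Pik3cd-/- (padj = 0.0466) and by -0.47 ± 0.13 in Pik3cd+/- (padj = 0.0339), and less Bmp6 in Pik3cd+/- (-0.67 ± 0.13, padj = 0.00567).

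Among receptors, the type I receptor Acvr1 rose after PMSG in Pik3cd+/- by 0.71 ± 0.15 (padj = 0.00685) and was above the E2 level by 0.77 ± 0.15 (padj = 0.00505). The activin type II receptor Acvr2a was lower in Pik3cd-/- after E2 by -0.26 ± 0.08 (padj = 0.0414). The ubiquitin ligase Smurf1, which targets BMP SMADs and receptors, was lower in Pik3cd-/- after E2 by -0.52 ± 0.12 (padj = 0.012) and lower after PMSG than after E2 in Pik3cd+/- by -0.47 ± 0.12 (padj = 0.0197). Chrdl1, an antagonist related to chordin, rose with PMSG in Pik3cd+/- by 1.02 ± 0.30 (padj = 0.0276) and was lower in Pik3cd-/- after E2 by -1.05 ± 0.30 (padj = 0.0273). Its mean was 112 ± 60.8 in Pik3cd-/- and 225 ± 57.5 in Pik3cd+/- ovaries given E2.

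Among targets, Atoh8, a basic helix-loop-helix factor that BMP induces in endothelial cells, was called in the same 3 comparisons as Smad6. It averaged 103 ± 18.3 in Pik3cd-/- and 199.9 ± 35.0 in Pik3cd+/- ovaries given E2, against 95.7 ± 15.6 in Pik3cd-/- and 123 ± 16.5 in Pik3cd+/- untreated ovaries. Atoh8 rose after E2 in Pik3cd+/- by 0.66 ± 0.16 (padj = 0.0498), was lower after PMSG than after E2 in Pik3cd+/- by -0.93 ± 0.16 (padj = 0.00223), and was lower in Pik3cd-/- after E2 by -0.91 ± 0.16 (padj = 0.0032). Hey1, a Notch and BMP target, fell after PMSG in Pik3cd+/- by -0.60 ± 0.12 (padj = 0.00483) and was lower there after PMSG than after E2 by -0.56 ± 0.12 (padj = 0.00816). After PMSG, 0 of the 35 were called in Pik3cd-/- (1.71% of all tested genes rose and 0.669% fell). In Pik3cd+/- 2 of the 35 rose (5.80% of all genes) and 6 fell (11.9%) after PMSG. After E2, 0 were called in Pik3cd-/- (0.00787% rose and 0.0472% fell), and in Pik3cd+/- 1 rose (1.18%) and 0 fell (0.440%). For PMSG minus E2, 0 were higher (3.33%) and 1 lower (0.779%) in Pik3cd-/-. In Pik3cd+/- 1 was higher (3.54%) and 5 lower (7.65%). Between genotypes after E2, 3 were higher in Pik3cd-/- (4.85%) and 5 lower (12.0%). After PMSG, 1 was higher (3.08%) and 0 lower (1.05%), and untreated 0 were called (0.834% higher and 1.34% lower).

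Across the 18 arrays Bmpr1b and Bmpr2 had the highest correlation of any pair of the 10 genes (Pearson r = 0.92 of log2 values), and Smad7 correlated with Bmpr1b (0.81), Bmpr2 (0.81), Smad6 (0.80) and Bmp2 (0.78). With the other 9, r lay between -0.56 and 0.51 for Grem1, between -0.56 and 0.11 for Bmpr1a, between -0.15 and 0.51 for Id1 and between -0.36 and 0.19 for Id2. These arrays share genotype and treatment groups, so the values describe the groups and carry no p. The genes most like each member by the same measure were Masp1 (0.96) and Tox (0.93) for Grem1, Asb4 (0.93) and Arrdc3 (0.89) for Bmp2, Fam122b (0.97) and Fam210a (0.96) for Bmpr1b, and Adamts6 (0.93) and Fam210a (0.93) for Bmpr2. For Smad6 they were Maff (0.95) and Rgs11 (0.94), for Smad7 Bcl10 (0.89) and Sema5a (0.89), and for Bmpr1a Hbp1 (0.87) and Tigd2 (0.84). For the ID genes they were Nap1l2 (0.84) and Dsel (0.82) with Id1, Cutal (0.73) and Dnase2a (0.72) with Id2, and Slc25a28 (0.88) and Rbm22 (0.85) with Id3.

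The study's rule took genes changed at least 2-fold in Pik3cd+/- and without the same trend in Pik3cd-/-. Among called genes of the 10, Bmp2 after PMSG had a ratio of means over untreated of 0.841 in Pik3cd-/- and 2.11 in Pik3cd+/-, and the Pik3cd+/- ratio was 1.89 without PMSG replicate 2. Smad6 after E2 had a ratio of 1.14 in Pik3cd-/- and 2.37 in Pik3cd+/-. Grem1 after PMSG had 5.76 in Pik3cd-/- and 10.3 in Pik3cd+/-, so it changed with the same trend. The Pik3cd+/- ratio rested on replicate 3 of the PMSG group, without which it was 6.04. After E2, where Grem1 was not called, its ratio was 1.38 in Pik3cd-/- and 0.492 in Pik3cd+/-. The E2 and untreated arrays overlapped in both genotypes. With an array left out, that Pik3cd+/- ratio ranged from 0.284 to 0.63. Bmp2 after E2 was just under the fold, at 1.31 in Pik3cd-/- and 1.98 in Pik3cd+/-, and the Pik3cd+/- ratio was 2.13 without E2 replicate 2 and 2.04 without untreated replicate 2.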

How the data were processed

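Ovary RNA was hybridised to 18 Affymetrix Mouse Genome 430 2.0 arrays. The authors deposited a linear intensity for each probe set of each array, made with MAS5 per the submitters' processing notes, which give no version. No further normalization was applied. Of 45101 probe sets, 932 with several gene symbols and 9160 with none were not tested as genes. The 9160 leave out the 64 controls, of which those with no gene symbol were not tested either. The brightest of the remaining 34958 probe sets of a gene stood for it. Symbols came from the platform annotation, updated through RefSeq gene IDs.

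Values were taken as log2(signal + 8.58), 8.58 being the 10th percentile of all values, and genes whose 6 group means were all at or below 5.87, the median log2 value, were left out. A model of 6 group means was fitted to all arrays with limma 3.58.1 in R 4.3.3 (eBayes with trend, 12 residual and 3.66 prior degrees of freedom), and 11 comparisons were tested two-sided. The Benjamini-Hochberg adjustment ran over 12714 genes, with calls made at an adjusted p under 0.05. The fit was tested on simulated data. The labels name biological replicates but not separate animals, so p-values measure the spread between these samples.

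All 10 genes were named in every comparison. Other genes were named when called in a treatment or genotype comparison, up to 4 per direction by adjusted p, and so were the 2 genes most like each member, clone names left out. The members and lists were chosen with earlier results of these data known. Alternatives were pseudocounts of 1 and 64, the filter removed or raised to the 70th percentile, eBayes without trend, quantile normalization, only the groups compared, a replicate block, the most variable probe set, each probe set on its own, and each array left out.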

Additional observations from a re-analysis of the deposited data

Results flagged for a closer look

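For Bmp2 after PMSG the 2 genotypes lay on opposite sides of their untreated means: each Pik3cd-/- array given PMSG lay below the untreated Pik3cd-/- mean, and each Pik3cd+/- array given PMSG lay above the untreated Pik3cd+/- mean. In Pik3cd-/- the PMSG and untreated arrays overlapped and the change of -0.21 did not pass (limma padj = 0.651). The difference of the PMSG changes, Pik3cd-/- minus Pik3cd+/-, was -1.23 ± 0.32 on the log2 scale (unadjusted p = 0.00161, limma padj = 0.348 over 12714 genes). The cause was not tested.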

How the results depend on the processing

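Of 3080 alternative values of the 10 genes, 76 ended a call, 14 gained one and none reversed one; 74 changed sign, all where neither value was called. The count called after PMSG in Pik3cd-/- was 0 with a pseudocount of 1, with no filter or with only the groups compared (range with an array left out 0 to 2, against 1). After E2 in Pik3cd+/- it was 1 with no filter or quantile normalization, Smad6 alone (range 1 to 2, against 2). For PMSG minus E2 in Pik3cd-/- it was 1 with a pseudocount of 64 (Grem1) or only the groups compared (Id2) (range 0 to 1, against 0). Between untreated genotypes it was 1 with a pseudocount of 1, no filter, eBayes without trend, only the groups compared, the most variable probe set, or each probe set on its own (range 0 to 3, against 2). Between genotypes after PMSG it was 1 with no filter, eBayes without trend, the most variable probe set, or each probe set on its own, Bmp2 each time (range 1 to 2, against 2). Between genotypes after E2 it was 1, Smad6, with only the groups compared (range 3 to 6, against 5).

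With the replicate block the same members were called as without it in each of the 11 comparisons, 2, 1, 2, 0, 2, 0, 2, 2, 5, 0 and 0 of 10. The replicate numbers did not pair the arrays: deviations of the 45 same-numbered pairs correlated at -0.34 to 0.34, and 5 of 18 arrays correlated best with their own number. Over all genes the largest moves came with only the groups compared: 97 calls between genotypes after E2, against 2141, 764 after E2 in Pik3cd+/-, against 206, 989 between genotypes after PMSG, against 525, 216 for PMSG minus E2 in Pik3cd-/-, against 522, and 95 between untreated genotypes, against 276. Quantile normalization gave 485 after PMSG in Pik3cd-/-, against 302, and 425 between untreated genotypes, against 276. After E2 in Pik3cd-/-, calls numbered 0 with only the groups compared, 2 with no filter or the block, 3 with quantile normalization and 16 with the most variable probe set, against 7. In the interactions, against 0, calls numbered 3 (quantile) and 2 (pseudocount 64) for PMSG, and 1 for E2 with only the groups compared or the block. With an array left out, calls over all genes between genotypes ranged from 642 to 2942 after E2, 82 to 973 after PMSG and 1 to 682 untreated. Without an array, the lone pair of its group is assumed to vary like the other groups. With 3 arrays per group and no repeat hybridisations, depth here means signal over background, which was low for Smad6, and for Grem1 outside the PMSG groups.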
